A study of Mus musculus with 6 samples.

Results

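The genes described here encode the NF-κB transcription factors and the IκB proteins that bind them. They were chosen by name from these 2 families, with earlier results of these data known. The 10 members are the 5 subunits *Rela*, *Relb*, *Rel*, *Nfkb1* and *Nfkb2* and the 5 IκB genes *Nfkbia*, *Nfkbib*, *Nfkbie*, *Nfkbid* and *Nfkbiz*, out of 27179 gene identifiers in the count files, and all 10 are among the 12418 genes that passed the filters and were tested. They were measured by RNA-seq in A20, a mouse B cell lymphoma line of the BALB/C strain, in 6 libraries that form 3 groups of 2 independently repeated samples. The first group is wild-type A20, the second holds TETact-v3 with control sgRNA that has no target, and in the third the sgRNA of TETact-v3 is directed to the *Cd4* promoter. TETact-v3 joins dCas9 to the TET1 catalytic domain, an enzyme that starts DNA demethylation, through SunTag epitopes, and brings in the p65-hsf1 activator through MS2 aptamers in the sgRNA. Both TETact-v3 groups therefore carry every part of the system and differ in the sgRNA alone, whereas wild-type cells carry none of it, so that the effects of lentiviral transduction, sorting, the demethylase and the activator cannot be told apart in a comparison with wild type. Since p65 is the protein that *Rela* encodes, reads of the construct could in part be counted as *Rela*, which was not tested.

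NF-κB subunits act as dimers that bind κB sites in promoters and enhancers. In resting cells the classical IκB proteins, encoded by *Nfkbia*, *Nfkbib* and *Nfkbie*, hold the dimers in the cytoplasm until IκB kinase marks them for destruction, and *Nfkbia* is itself a target of NF-κB, which closes a feedback loop. The nuclear IκB proteins IκBNS (*Nfkbid*) and IκBζ (*Nfkbiz*) instead join dimers on DNA and change which genes they switch on. In B cells the pathway is driven by the B cell receptor, CD40, the BAFF receptor and Toll-like receptors, and it supports survival and the response to antigen.

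The libraries held between 23194920 and 121623410 counts, with the 2 control sgRNA libraries the deepest, and a count of 3, taken as the detection floor, equals 0.0270 to 0.140 CPM (counts scaled to library size with TMM factors). *Cd4* was counted 37 and 17 times in wild type, 127 and 124 times with control sgRNA and 30959 and 40422 times with *Cd4* sgRNA, which checks the labels of the targeted group. All 8 B cell markers examined were tested in these cells, and their summed level was 8590 to 8691 CPM in wild type, 5501 to 8409 CPM with control sgRNA and 4727 to 5313 CPM with *Cd4* sgRNA. The 4 plasma cell markers summed to 1322 to 1343, 948 to 1333 and 930 to 957 CPM in the same order, but went both ways. *Prdm1* was at 4.05 and 3.74 CPM in wild type, 9.29 and 33.0 CPM with control sgRNA and 8.61 and 7.88 CPM with *Cd4* sgRNA. *Sdc1* was also higher in every TETact-v3 library than in wild type, *Xbp1* lower in each, and *Jchain* lower except in control sgRNA replicate 2. Of 7 T cell markers, 6, among them *Cd3e* and *Cd8b1* at 0, had at most 3 counts in any library, the 7 myeloid markers summed to at most 6.38 CPM and the 5 fibroblast markers to at most 0.507 CPM. The control sgRNA replicates stood apart from each other, with a median absolute difference per gene of 0.275 on the log2 scale against 0.0838 in wild type and 0.0861 with *Cd4* sgRNA. The share of counts from mitochondrial genes also moved with the groups, from 2.65% and 2.69% for wild type to 6.63% and 11.5% for control sgRNA and 5.96% and 6.90% for *Cd4* sgRNA. The part of these differences in the results was not tested, so the members' values with control sgRNA are also given without each of its libraries, as are those of named list genes that then turned a call or moved by over 1.5 times. In bulk RNA, a change in the number of cells that express a gene and a change in RNA per cell cannot be told apart.

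Promoter sequence was looked at because several members are known targets of NF-κB. RefSeq windows of GRCm38.p6, from 250 bases before a transcript start to 50 bases after it, were at hand for 7 of the 10 members, in 11 windows. There was none for *Nfkbiz*, *Nfkb1* or *Relb*, so nothing is said here of their promoters. The members *Nfkbia*, *Nfkbid* and *Nfkb2*, which passed the test in a comparison with wild type, have their 250 upstream bases printed here 5′ to 3′ on the gene's strand, with the first window of each and also the second of *Nfkbid*. Capitals mark the κB letters, GGG followed by any 5 bases and CC, on either strand, and touching or overlapping matches run together.
Nfkbia, chr12:55492648-55492897, minus strand: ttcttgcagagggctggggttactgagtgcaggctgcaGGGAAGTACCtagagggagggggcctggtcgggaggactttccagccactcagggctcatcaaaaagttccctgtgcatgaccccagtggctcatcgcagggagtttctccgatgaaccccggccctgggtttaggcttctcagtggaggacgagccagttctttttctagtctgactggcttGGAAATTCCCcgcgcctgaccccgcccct
Nfkbid first window, chr7:30421481-30421730, plus strand: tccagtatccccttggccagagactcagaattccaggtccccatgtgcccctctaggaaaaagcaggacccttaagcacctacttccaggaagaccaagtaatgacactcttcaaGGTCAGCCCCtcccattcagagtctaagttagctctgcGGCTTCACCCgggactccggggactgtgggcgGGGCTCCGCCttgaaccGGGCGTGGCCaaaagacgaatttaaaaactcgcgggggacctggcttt
Nfkbid second window, chr7:30422156-30422405, plus strand: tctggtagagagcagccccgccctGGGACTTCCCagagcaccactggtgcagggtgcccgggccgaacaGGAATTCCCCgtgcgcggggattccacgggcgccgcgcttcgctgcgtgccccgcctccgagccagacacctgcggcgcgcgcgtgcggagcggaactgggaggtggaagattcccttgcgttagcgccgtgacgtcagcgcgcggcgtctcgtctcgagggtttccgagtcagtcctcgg
Nfkb2 first window, chr19:46304487-46304736, plus strand: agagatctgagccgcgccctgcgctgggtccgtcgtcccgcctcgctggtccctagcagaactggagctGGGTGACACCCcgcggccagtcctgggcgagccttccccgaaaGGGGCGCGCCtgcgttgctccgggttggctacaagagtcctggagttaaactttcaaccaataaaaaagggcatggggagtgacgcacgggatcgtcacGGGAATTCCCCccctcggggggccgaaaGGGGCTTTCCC
These loose letters were common, being present in 50.79% of all 32851 promoter windows of 300 bases, so a match by itself says little. The narrower letters, GGG followed by any 2 bases and TTTCC, whose matches are a subset of the former, were present in 1.629% of all windows. They were found in the *Nfkbia* window at positions -29 to -20 from the start, in the *Rel* window and in the windows of *Nfkb2*, in the printed one at -11 to -2. The other two windows of *Nfkb2* overlap and share 1 match. No match to the narrower letters was found in the windows of *Nfkbid*, *Nfkbib*, *Nfkbie* or *Rela*, and *Nfkbib* held neither form. The second window of *Nfkbid* carries 2 separate stretches with the loose letters, at -226 to -217 and -181 to -172. It also holds letters shared by heat shock elements, GAA followed by any 2 bases and TTC, at -75 to -68, as does the *Rel* window, against 7.86% of all windows. A match is a description of letters, not of a site in use.

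The first question is how the family differs between TETact-v3 cells that have no target and untouched A20. *Nfkbiz*, the gene of the nuclear protein IκBζ, was 96.3-fold higher with control sgRNA than in wild type, *Nfkbid* was 3.59-fold higher and *Nfkbia* 2.40-fold higher. *Nfkb1*, which encodes the p105 precursor of p50, was slightly lower. In all, edgeR's quasi-likelihood test called 3 members higher and 1 lower, with 0.05 as the limit of the adjusted p-value, and left 6 uncalled. Among all 12418 genes tested, 14.5% were called higher and 13.5% lower in this comparison, 28.0% in all, which is the background for the 4 of 10 members called. The median log2 fold change of the 10 members was -0.11, beside -0.0012 for all genes. CPM did not overlap between the groups for 4 members that were higher and 5 that were lower, where 33.3% and 33.8% of all genes did so, 67.1% together.

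*Nfkbiz* lies on chromosome 16 of mm10 from 55811375 to 55838954. Its level was 2.15 CPM in both wild-type libraries, from 100 and 46 counts, against 195 and 220.0 CPM with control sgRNA and 128 and 125 CPM with *Cd4* sgRNA. Wild type was thus near the lower end of the tested genes and both TETact-v3 groups were far above it, without overlap between any of the 3 groups. The log2 fold change was 6.59 with control sgRNA against wild type (standard error 0.13, edgeR adjusted p = 2.3e-05) and ranked 1 by p-value and 60 by size among 12418 genes. Per kb of transcript, *Nfkbiz* stood at percentile 14.4 of the tested genes in wild type, at 85.8 with control sgRNA and at 76.7 with *Cd4* sgRNA.

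*Nfkbid*, on chromosome 7 from 30421731 to 30428749, encodes the other nuclear IκB protein and followed the same direction at a smaller scale. It was at 27.5 and 26.6 CPM in wild type, 109 and 84.9 CPM with control sgRNA and 95.5 and 96.8 CPM with *Cd4* sgRNA. The 2 TETact-v3 groups overlapped each other and both were above wild type. Its log2 fold change with control sgRNA against wild type was 1.84 (standard error 0.14, edgeR adjusted p = 0.0013).

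*Nfkbia*, on chromosome 12 from 55489409 to 55492647, encodes IκBα, the inhibitor that NF-κB itself induces. Its levels were 96.2 and 92.2 CPM in wild type, 187 and 265 CPM with control sgRNA and 138 and 133 CPM with *Cd4* sgRNA. The 3 groups did not overlap, with control sgRNA highest and its 2 replicates wide apart. The log2 fold change with control sgRNA against wild type was 1.26 (standard error 0.17, edgeR adjusted p = 0.0050). It was 1.51 without control sgRNA replicate 1 and 0.99 without replicate 2, and the call was lost without either wild-type replicate, at edgeR adjusted p-values of 0.074 and 0.060.

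**Figure D1:**
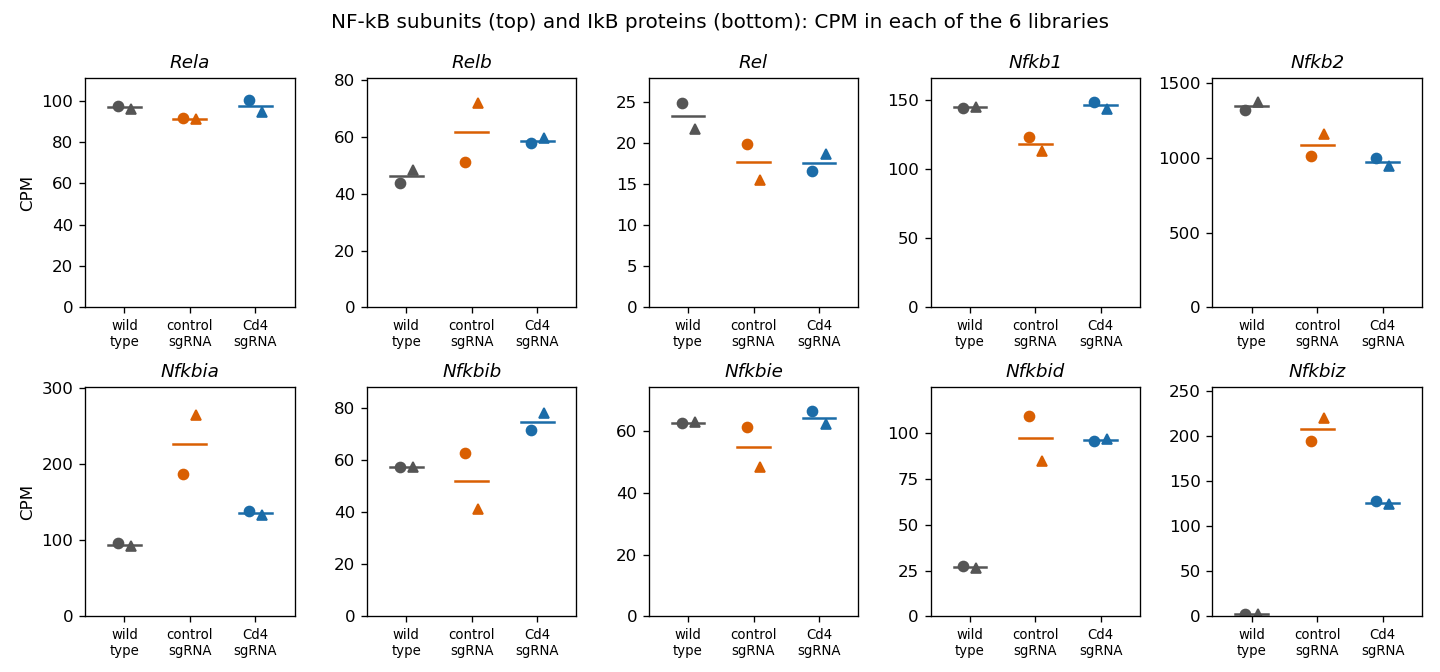
CPM (counts scaled to library size with TMM factors, linear axes from 0) of each of the 10 members in the 6 libraries; circles are replicate 1, triangles replicate 2 and bars the group mean. *Nfkbiz* is at 2.15 CPM in both wild-type libraries and between 125 and 220.0 CPM in the other 4, and *Nfkbia*, *Nfkbib* and *Relb* show how far apart the control sgRNA replicates are.

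The remaining IκB genes did not pass the test. *Nfkbib*, on chromosome 7 from 28758251 to 28766644, encodes IκBβ and was at 57.4 and 57.2 CPM in wild type, 62.6 and 41.3 CPM with control sgRNA and 71.4 and 78.0 CPM with *Cd4* sgRNA. The control sgRNA libraries lay on both sides of wild type. *Nfkbie*, on chromosome 17 from 45555700 to 45563169, encodes IκBε and was at 62.7 and 62.9 CPM in wild type, 61.4 and 48.3 CPM with control sgRNA and 66.6 and 62.3 CPM with *Cd4* sgRNA. Their 95% intervals for control sgRNA against wild type, on the log2 scale, ran from -0.61 to 0.33 for *Nfkbib* and from -0.51 to 0.12 for *Nfkbie*.

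The log2 fold changes of the 5 subunits against wild type all lay between -0.47 and 0.42. *Rela*, on chromosome 19 from 5637442 to 5648134, encodes p65, the main activating subunit of the classical pathway. It was at 97.5 and 95.9 CPM in wild type, 91.6 and 91.1 CPM with control sgRNA and 100.3 and 94.3 CPM with *Cd4* sgRNA. Its log2 fold change with control sgRNA against wild type had a 95% interval from -0.28 to 0.11, and with *Cd4* sgRNA from -0.19 to 0.20.

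*Rel*, on chromosome 11 from 23736847 to 23770969, encodes c-Rel, a subunit known for its role in lymphocytes. It was at 24.9 and 21.7 CPM in wild type, 19.97 and 15.5 CPM with control sgRNA and 16.6 and 18.7 CPM with *Cd4* sgRNA. All 4 TETact-v3 libraries were below both wild-type libraries, but the log2 fold changes of -0.40 and -0.41 were not called (edgeR adjusted p = 0.11 and 0.13). *Relb*, on chromosome 7 from 19606217 to 19629438, encodes the activating subunit of the alternative pathway. It was at 43.8 and 48.5 CPM in wild type, 51.3 and 71.9 CPM with control sgRNA and 57.8 and 59.8 CPM with *Cd4* sgRNA, so that every TETact-v3 library was above wild type. Its log2 fold changes of 0.42 and 0.35 were not called either (edgeR adjusted p = 0.11 and 0.18).

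The 2 precursor subunits were the members called lower, each in 1 comparison. *Nfkb1*, on chromosome 3 from 135584655 to 135691969, was at 144 and 145 CPM in wild type, 124 and 113 CPM with control sgRNA and 149 and 144 CPM with *Cd4* sgRNA. Control sgRNA was below both other groups, with a log2 fold change against wild type of -0.29 (standard error 0.086, edgeR adjusted p = 0.049). This call sits at the threshold and was kept in 7 of 16 alternatives. It was lost without any 1 wild-type or *Cd4* sgRNA library, at edgeR adjusted p-values of 0.14 to 0.30.

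*Nfkb2*, on chromosome 19 from 46300994 to 46312400, encodes the p100 precursor, which restrains the alternative pathway until it is processed to p52. It was at 1322 and 1370.5 CPM in wild type, 1011 and 1158 CPM with control sgRNA and 999 and 944 CPM with *Cd4* sgRNA. Both TETact-v3 groups were below wild type and did not overlap each other. The log2 fold change was -0.31 with control sgRNA (standard error 0.10, edgeR adjusted p = 0.064, not called) and -0.47 with *Cd4* sgRNA (standard error 0.10, edgeR adjusted p = 0.026). The second call was lost without any 1 wild-type or *Cd4* sgRNA library, at edgeR adjusted p-values of 0.16 to 0.22. The *Nfkb2* span overlaps those of *4833438C02Rik* and *Psd*, and since the sources do not say whether counting used strand, their reads may not be told apart. The larger of the 2 had at most 2203 counts in any library, against 29344 for *Nfkb2* in the shallowest one.

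The values with control sgRNA against wild type moved with the library left out. Without control sgRNA replicate 1, edgeR called 4 members higher and 5 lower, where 64.2% of all genes were called, and without replicate 2 it called 3 higher and 3 lower, where 59.9% were. *Relb* was called without replicate 1, at 0.67, and not without replicate 2, at 0.16. *Nfkbib* (-0.45 and 0.13) and *Nfkbie* (-0.35 and -0.030) were likewise called lower without replicate 1 and not called without replicate 2. *Rel* (-0.58 and -0.24) and *Nfkb2* (-0.19 and -0.41) were called lower in both fits. *Nfkb1* (-0.33 and -0.23), *Nfkbid* (1.67 and 2.01) and *Nfkbiz* (6.70 and 6.50) kept their calls in both, and *Rela* (-0.064 and -0.077) was called in neither.

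With *Cd4* sgRNA against wild type, 2 members were higher and 1 lower, and 7 were not called. *Nfkbiz* was 58.6-fold higher, or 5.87 on the log2 scale (standard error 0.13, edgeR adjusted p = 2.2e-05), and *Nfkbid* was 3.55-fold higher, or 1.83 (log2 scale, standard error 0.14, edgeR adjusted p = 0.0016). Both kept their call in all 16 alternatives of both comparisons with wild type. *Nfkbia*, at 0.52 on the log2 scale (standard error 0.17, edgeR adjusted p = 0.071), was not called. The background in this comparison was 9.85% of genes called higher and 10.7% called lower, and the median log2 fold change was 0.19 for the members and 0.0045 for all genes. CPM did not overlap for 5 members that were higher and 2 that were lower, where 40.4% and 39.4% of all genes did so, 79.8% together. A fit of these 2 groups alone called 5 members higher and 2 lower, where it called 61.7% of all genes. Fits without control sgRNA replicate 1 or 2 gave the same counts, where they called 59.4% and 59.7% of all genes. The 2 comparisons with wild type share the wild-type libraries, so their values stand side by side and are not independent.

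**Figure D2:**
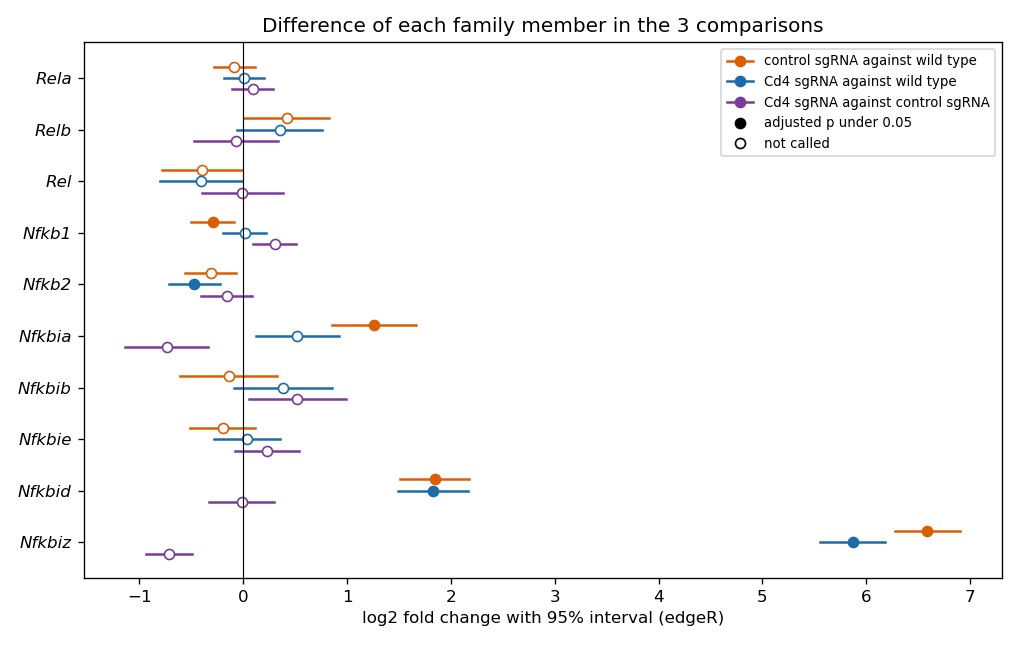
Log2 fold change of each member with its 95% interval in the 3 comparisons from edgeR; filled points have an adjusted p-value under 0.05. *Nfkbiz* lies at 6.59 and 5.87 against wild type, and between *Cd4* and control sgRNA all 10 points are open.

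Whether the sgRNA itself made a difference was asked by setting *Cd4* sgRNA against control sgRNA cells, which share all other parts of the system. No member was called, 0 higher and 0 lower, where 0.0242% of genes were called higher and 0.0483% lower by edgeR, 0.0725% together. Before adjustment, 4 members had a p-value under 0.05, *Nfkbiz*, *Nfkbia*, *Nfkb1* and *Nfkbib*, as had 24.9% of all genes. DESeq2 called *Nfkb1* higher and *Nfkbiz* and *Nfkbia* lower, where it called 10.9% of all genes, and voomLmFit called none. *Nfkbiz* was lower with *Cd4* sgRNA in both libraries, with a log2 fold change of -0.72 (95% interval -0.94 to -0.50, edgeR adjusted p = 0.093) and rank 22 by p-value. For *Nfkbia* the log2 fold change was -0.74 (95% interval -1.13 to -0.34, edgeR adjusted p = 0.12), and for *Nfkbid* it was -0.015 (95% interval -0.33 to 0.30). The median over the members was -0.011, beside -0.0078 for all genes, and CPM did not overlap for 4 members that were higher and 3 that were lower, where 29.5% and 30.2% of all genes did so, 59.7% together.

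This comparison turned on the 2 control sgRNA libraries. Without control sgRNA replicate 1, edgeR called 4 members higher and 4 lower, where 61.3% of all genes were called. Without replicate 2 it called 2 members higher and 3 lower, where 24.9% of all genes were called. *Nfkbiz*, *Nfkbia*, *Nfkb1* and *Nfkbib* were called in both of these fits with the direction they had with all libraries, at -0.80 and -0.63, -0.96 and -0.47, 0.37 and 0.24, and 0.86 and 0.26, whereas *Nfkbid* was called higher in the first, at 0.18, and lower in the second, at -0.19. Leaving out any other library left 1 gene called in all, and no member.

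The replicates behind this differed member by member. Between control sgRNA replicate 2 and replicate 1 the difference was -0.60 on the log2 scale for *Nfkbib*, 0.50 for *Nfkbia* and 0.49 for *Relb*, but -0.0075 for *Rela* and 0.18 for *Nfkbiz*. Between the wild-type replicates the members differed by at most 0.20, in *Rel*, and between the *Cd4* sgRNA replicates by at most 0.17, also in *Rel*.

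Levels can be compared between genes only per length, as CPM per kb of the counted exons. *Nfkb2* was the highest member in every group, at 409 ± 10.4 CPM per kb in wild type, 329 ± 31.5 with control sgRNA and 295 ± 11.6 with *Cd4* sgRNA (SD, n = 2 each). It made up 80.0% and 80.5% of the summed subunit level in wild type, 76.4% and 77.9% in control sgRNA cells, and 74.1% and 73.4% in *Cd4* sgRNA cells. *Nfkbia* was second in every group, at 59.7 ± 1.78, 143 ± 34.7 and 85.8 ± 2.33 CPM per kb in the same order.

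Below these, the order of the members changed with the group. In wild type it ran *Rela*, *Nfkb1*, *Nfkbib*, *Nfkbie*, *Relb*, *Nfkbid* and *Rel*, with *Nfkbiz* last at 0.554 ± 0.000703 CPM per kb (SD, n = 2), and no neighbours overlapped over their 2 libraries. With control sgRNA *Nfkbiz* took position 3 at 53.5 ± 4.63 and *Nfkbid* position 4 at 48.3 ± 8.58 CPM per kb (SD, n = 2 each), and these 2 overlapped. *Rela* came next, and *Nfkb1*, *Relb*, *Nfkbib* and *Nfkbie* overlapped one with the next. With *Cd4* sgRNA *Nfkbid* took position 3 at 47.8 ± 0.444 and *Nfkbiz* position 7 at 32.5 ± 0.555 CPM per kb (SD, n = 2 each), with *Nfkbib*, *Rela* and *Nfkb1* between them. *Relb* and *Nfkbie* followed and overlapped, and *Rel* was last in both TETact-v3 groups.

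Summed over the family, the IκB transcripts were higher in the TETact-v3 libraries and the subunit transcripts lower. The 5 subunits added up to 502 and 517 CPM per kb in the wild-type libraries, 402 and 451 in those with control sgRNA, and 409 and 391 in those with *Cd4* sgRNA. Without *Nfkb2* the sums were close, at 94.8 and 99.7 CPM per kb for control sgRNA, 101 in both wild-type libraries, and 106 and 104 for *Cd4* sgRNA, although the groups did not overlap. The 5 IκB genes added up to 131 and 128 CPM per kb in the wild-type libraries, 281 and 308 in those with control sgRNA, and 232 and 230.2 in those with *Cd4* sgRNA. The nuclear IκB genes *Nfkbid* and *Nfkbiz* held 10.9% and 10.8% of that sum in wild type, 37.3% and 32.2% in control sgRNA cells, and 34.6% and 34.9% in *Cd4* sgRNA cells. Without *Nfkbiz* the sum was still 130.0 and 127 CPM per kb in wild type against 198 to 251 in the TETact-v3 libraries. The ratio of the summed level of the subunit genes to that of the IκB genes came to 3.85 and 4.06 for wild type. It was 1.43 and 1.47 for control sgRNA and 1.76 and 1.70 for *Cd4* sgRNA. These groups do not overlap, but with 2 libraries a group the smallest p of an exact permutation test is 0.333, so no test was made. The ratio is one of transcripts, not of proteins. It is not a measure of inhibition, since the IκB sum includes the nuclear members, which join dimers on DNA, and *Nfkb2* makes up most of the subunit sum.

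**Figure D3:**
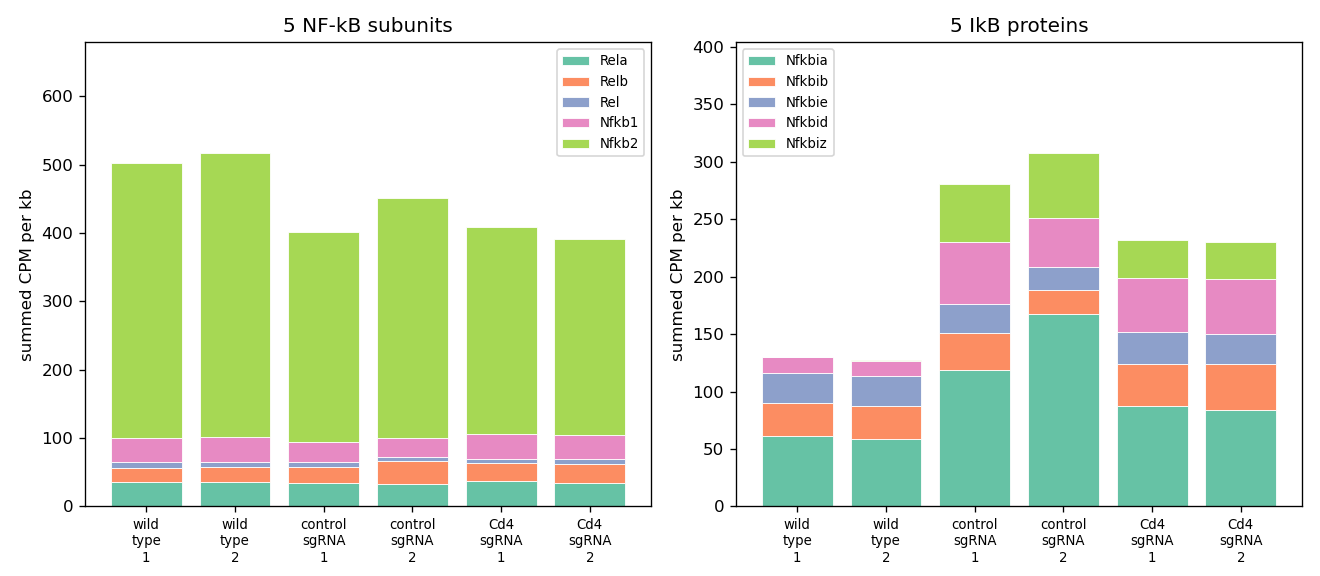
Summed level, in CPM per kb on axes from 0, of the 5 subunit genes (left) and the 5 IκB genes (right) in each library, with colours for the genes. *Nfkb2* holds 73.4% to 80.5% of the left bars, and on the right *Nfkbid* and *Nfkbiz* are wider in all 4 TETact-v3 libraries than in wild type.

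The genes around the family in the pathway were taken from lists of its kinases, ligands, receptors, adaptors, inhibitors, nuclear partners and the proteins that act on *Nfkbiz* mRNA. Of 96 genes listed, 95 were in the files and 75 were tested. With control sgRNA against wild type, 13 of the 75 were higher and 19 lower, which is 42.7% in all beside a background of 28.0%, and the median log2 fold change was -0.13 against -0.0012 for all genes. With *Cd4* sgRNA against wild type, 8 were higher and 12 lower, which is 26.7% in all beside 20.5%, and the median was -0.083 against 0.0045. Between the 2 TETact-v3 groups 0 genes were called by edgeR, with 25 of the 75 at an unadjusted p-value under 0.05, as had 24.9% of all genes. DESeq2 called 13, beside its 10.9% of all genes, and voomLmFit 0.

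Among the 7 genes whose products act on *Nfkbiz* mRNA, 5 were tested. In control sgRNA cells 1 was called, *Zc3h12a*, where 28.0% of all genes were called. It encodes Regnase-1, an RNase that cleaves *Nfkbiz* transcripts. It was at 10.8 and 9.53 CPM in wild type, 61.7 and 48.5 CPM with control sgRNA and 53.8 and 50.6 CPM with *Cd4* sgRNA. So the *Nfkbiz* transcript and the transcript of the RNase known to cleave it were both higher, and the protein was not measured. *Zc3h12a* had log2 fold changes of 2.42 and 2.35 (standard errors 0.15 and 0.16, edgeR adjusted p = 8.3e-04 and 0.0012). *Arid5a*, whose product protects transcripts from Regnase-1, was at 90.1 and 89.9 CPM in wild type, 37.5 and 66.5 CPM with control sgRNA and 38.3 and 36.8 CPM with *Cd4* sgRNA. It was called lower with *Cd4* sgRNA, at a log2 fold change of -1.26 (standard error 0.26, edgeR adjusted p = 0.023), and the value of -0.79 with control sgRNA was not called (edgeR adjusted p = 0.059). The difference between the 2 TETact-v3 groups for *Arid5a* was not called either (edgeR adjusted p = 0.28).

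Of the 7 nuclear partners, all tested, 3 were higher with control sgRNA and 2 with *Cd4* sgRNA, and none was called lower. In all this is 42.9% beside 28.0% of all genes with control sgRNA, and 28.6% beside 20.5% with *Cd4* sgRNA. *Bcl3*, which encodes an IκB-like protein that works with p50 and p52 in the nucleus, was at 9.41 and 9.20 CPM in wild type, 25.7 and 49.0 CPM with control sgRNA and 22.7 and 23.6 CPM with *Cd4* sgRNA. Its log2 fold changes were 2.00 and 1.31 (standard errors 0.31 and 0.32, edgeR adjusted p = 0.0083 and 0.036). *Stat3* was higher with control sgRNA, at 0.44, and not called with *Cd4* sgRNA, at 0.28.

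Of 10 kinases that free or process NF-κB, all were tested. With control sgRNA 1 was higher and 2 were lower, which is 30% in all, close to the 28.0% of all genes. The values of these 3 with *Cd4* sgRNA, -0.72 for *Map3k14*, -0.34 for *Chuk* and 0.25 for *Ikbke*, were not called. *Map3k14*, which encodes NIK, the kinase that starts the alternative pathway, was at 4.09 and 2.99 CPM in wild type, 1.57 and 1.12 CPM with control sgRNA and 2.41 and 2.06 CPM with *Cd4* sgRNA. Its log2 fold change with control sgRNA was -1.42 (standard error 0.26, edgeR adjusted p = 0.012). *Chuk*, the gene of IKKα, was lower at -0.56 and *Ikbke*, the gene of IKKε, higher at 0.55. *Tab2*, an adaptor of the kinase TAK1 with the highest mean CPM of the list, not scaled to length, had 0.35 and was not called (edgeR adjusted p = 0.092).

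The receptors that were called were mostly lower. Of 15 receptors tested, 6 were lower and 1 higher with control sgRNA, and 4 were lower and 1 higher with *Cd4* sgRNA. Those lower are 40% beside 13.5% of all genes with control sgRNA, and 26.7% beside 10.7% with *Cd4* sgRNA. The receptor called higher is 6.67% in each, beside 14.5% and 9.85% of all genes. *Cd79a* and *Cd79b*, the signalling chains of the B cell receptor, are also on the list of B cell markers. *Cd79a* was at 467 and 436 CPM in wild type, 207 and 265 CPM with control sgRNA and 241 and 209 CPM with *Cd4* sgRNA, with log2 fold changes of -0.94 and -1.01 (edgeR adjusted p = 0.0079 and 0.0093). For *Cd79b* they were -0.59 and -0.88 (edgeR adjusted p = 0.045 and 0.019). *Tnfrsf8*, which encodes CD30, was the 1 receptor called higher, at 0.97 and 0.57 (edgeR adjusted p = 0.0021 and 0.012).

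*Tlr9*, the receptor for CpG DNA, was at 347 and 359.5 CPM in wild type, 186 and 119 CPM with control sgRNA and 326 and 318 CPM with *Cd4* sgRNA. The *Cd4* sgRNA libraries thus lay close to wild type and the control sgRNA libraries below both. Its log2 fold change with control sgRNA was -1.21 (standard error 0.20, edgeR adjusted p = 0.0097), and between *Cd4* and control sgRNA it was 1.08 and not called (edgeR adjusted p = 0.11). *Tlr6* was called lower with *Cd4* sgRNA, at -0.49. *Tlr7* was called lower in both, on 11 and 5 counts in wild type and at most 6 in any TETact-v3 library.

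Among the 5 ligands tested, *Ltb*, which encodes lymphotoxin β and has the highest mean CPM of them, not scaled to length, was lower in both groups. It was at 724 and 748 CPM in wild type, 367 and 416 CPM with control sgRNA and 302 and 309 CPM with *Cd4* sgRNA. The log2 fold changes were -0.91 and -1.27 (standard errors 0.095 and 0.096, edgeR adjusted p = 0.0026 and 0.0016). *Tnf* was higher with *Cd4* sgRNA, at 0.60 (edgeR adjusted p = 0.025), and had 0.25 with control sgRNA, which was not called. *Tnfsf13b*, the gene of BAFF, was lower with *Cd4* sgRNA, at -2.07 (edgeR adjusted p = 0.039), from 2.65 and 2.01 CPM in wild type to 0.702 and 0.474 CPM.

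The adaptors went both ways, with 4 of 23 higher and 8 lower with control sgRNA and 2 higher and 5 lower with *Cd4* sgRNA. In all this is 52.2% beside 28.0% of all genes with control sgRNA, and 30.4% beside 20.5% with *Cd4* sgRNA. *Bcl10* and *Malt1*, which act below the B cell receptor, were higher with control sgRNA at 0.56 and 0.71, and *Malt1* also with *Cd4* sgRNA at 0.60. *Prkcb*, a kinase of B cell receptor signalling with the highest mean CPM of the list, not scaled to length, was lower at -0.87 and -1.39. *Traf5* was lower at -1.11 and -0.95 and *Tirap*, a Toll-like receptor adaptor, at -0.999 and -0.65, while *Ripk1* was higher at 0.50 and 0.69. For these 6 genes the edgeR adjusted p-values of the called comparisons ran from 0.0022, for *Traf5*, to 0.020, for *Malt1*.

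Of 9 pathway inhibitors tested, 3 were higher and 2 lower with control sgRNA and 1 was higher with *Cd4* sgRNA. In all this is 55.6% beside 28.0% of all genes with control sgRNA, and 11.1% beside 20.5% with *Cd4* sgRNA. *Tnfaip3*, which encodes a deubiquitinase, is a known target of NF-κB like *Nfkbia*. It was at 28.6 and 24.9 CPM in wild type, 37.0 and 49.9 CPM with control sgRNA and 28.8 and 26.1 CPM with *Cd4* sgRNA. It was called higher with control sgRNA, at a log2 fold change of 0.69 (standard error 0.17, edgeR adjusted p = 0.029), and the difference between the 2 TETact-v3 groups was not called (edgeR adjusted p = 0.13). *N4bp1* was higher in both groups at 0.38 and 0.39, and with control sgRNA *Tnip1* was higher at 0.28 and *Pdlim2* lower at -0.48.

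Of 7 genes known from other cells to need IκBζ, only *Il10* was tested. It was at 22.4 and 20.3 CPM in wild type, 22.3 and 56.7 CPM with control sgRNA and 27.8 and 24.3 CPM with *Cd4* sgRNA, and neither comparison with wild type was called (edgeR adjusted p = 0.16 and 0.66). The log2 fold change with control sgRNA, 0.88, rested on replicate 2, being 1.42 without replicate 1 and 0.055 without replicate 2. The other members of the list had at most 8 counts, for *Lcn2*, in any library, and *Ccl20* had 0. They were not tested, and a small change in them could not have been seen, but none rose above 8 counts in any TETact-v3 library.

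The list calls were less stable than those of *Nfkbiz* and *Nfkbid*. The naming rule picked 23 list genes called with control sgRNA against wild type. Of these, 12 kept the call in every alternative other than the fits without 1 library. These alternatives include the fit of only the 2 groups compared, which drops the third group. By itself it called 12 of the 23, where it called 12.4% of all genes. Only *Zc3h12a* kept the call also without any 1 library. Fits without 1 wild-type or *Cd4* sgRNA library called fewer of all genes tested, so these losses are not particular to the lists. Of the 18 with *Cd4* sgRNA, 14 kept the call in every alternative other than the fits without 1 library. Only *Zc3h12a* and *Ltb* kept it in all alternatives, and only they were left without any 1 wild-type or *Cd4* sgRNA library. Without either control sgRNA library all 23 and all 18 were called, in fits that called 59.4% to 64.2% of all genes, and none changed direction in any alternative. Of the called values with control sgRNA, *Cd79b* moved to -0.33 without control sgRNA replicate 1 and *Tnfaip3* to 0.46 without replicate 2. Values not called with all libraries were also moved: without replicate 1 and without replicate 2, *Arid5a* was at -0.41 and -1.26 and *Tab2* at 0.54 and 0.16, both called in both fits. *Tnf* (0.11 and 0.38), *Tnfsf13b* (-0.39 and -1.40) and *Tlr6* (-0.12 and -0.31) were called without replicate 2 and not without replicate 1. The B cell markers and the mitochondrial share described above moved with the same groups, and their part in these calls was not tested.

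**Figure D4:**
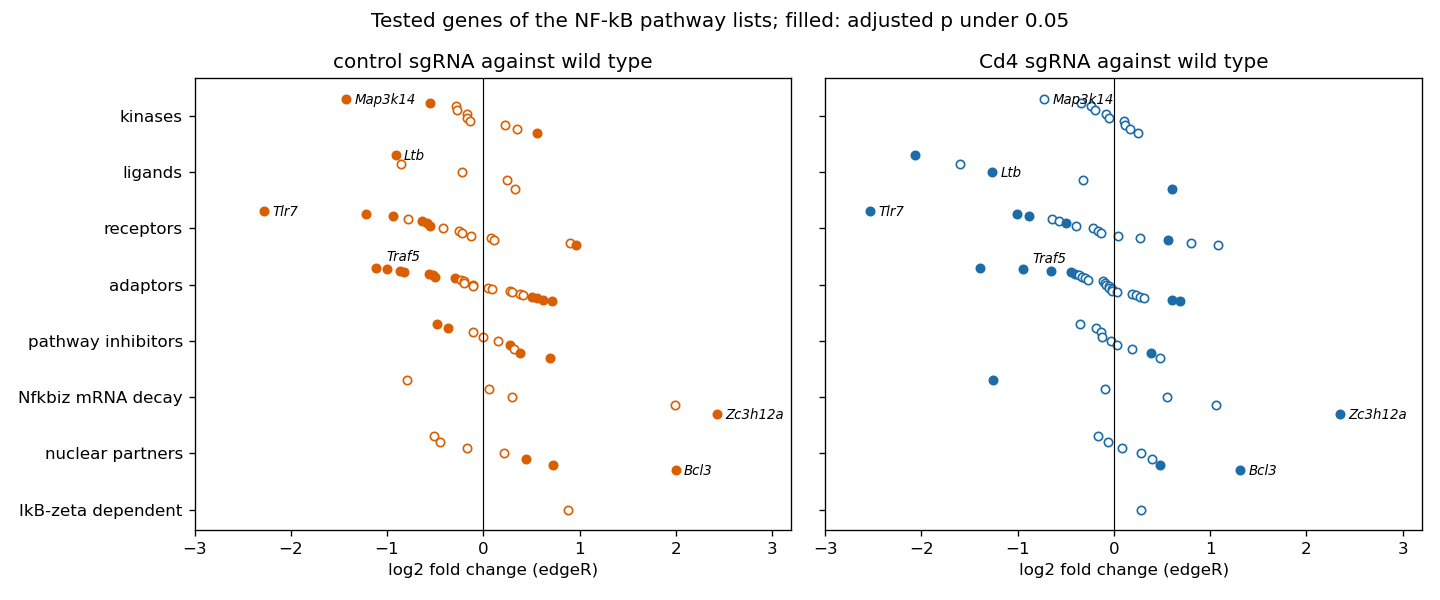
Log2 fold change from edgeR of every tested gene on the pathway lists, in control sgRNA cells (left) and *Cd4* sgRNA cells (right) against wild type, with 1 row for each list and filled points for an adjusted p-value under 0.05. *Zc3h12a* and *Bcl3* are farthest to the right among the filled points, at 2.42 and 2.00 on the left, and *Tlr7*, on the far left, rests on at most 11 counts in any library.

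The genes next to *Nfkbiz* were examined to see whether they moved with it. Of 12 annotated genes within 500 kb, 10 were tested, all on the side of higher coordinates. *Nxpe3*, whose span begins 0.999 kb from that of *Nfkbiz*, was at 51.5 and 48.4 CPM in wild type, 59.8 and 93.3 CPM with control sgRNA and 44.9 and 45.5 CPM with *Cd4* sgRNA. Its log2 fold changes of 0.61 and -0.15 against wild type were not called (edgeR adjusted p = 0.069 and 0.64). With control sgRNA *Senp7*, 219 kb away, was higher at 0.54 (edgeR adjusted p = 0.040) and *Zbtb11os1*, 134 kb away, lower at -1.13 (edgeR adjusted p = 0.013). No other of the 10 was called, where 28.0% of all genes were called. With *Cd4* sgRNA *Zbtb11os1* was lower at -0.93 (edgeR adjusted p = 0.036) and no other neighbour was called, where 20.5% of all genes were called. *Zbtb11os1* lies within the span of *Zbtb11*, and their reads may not be told apart for the same reason as at *Nfkb2*. Between the TETact-v3 groups 0 neighbours were called by edgeR, with 2 at an unadjusted p-value under 0.05, as had 24.9% of all genes. DESeq2, which called 10.9% of all genes, called 2 neighbours and voomLmFit 0. Without control sgRNA replicate 1 or 2, 7 and 5 of the 10 neighbours were called against wild type in control sgRNA cells, where 64.2% and 59.9% of all genes were called. *Nxpe3* was called in both fits, at 0.92 and 0.26, and *Senp7* was at 0.72 and 0.36. The calls of *Senp7* and *Zbtb11os1* with control sgRNA were lost without either wild-type replicate, as were most calls among all genes tested.

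**Figure D5:**
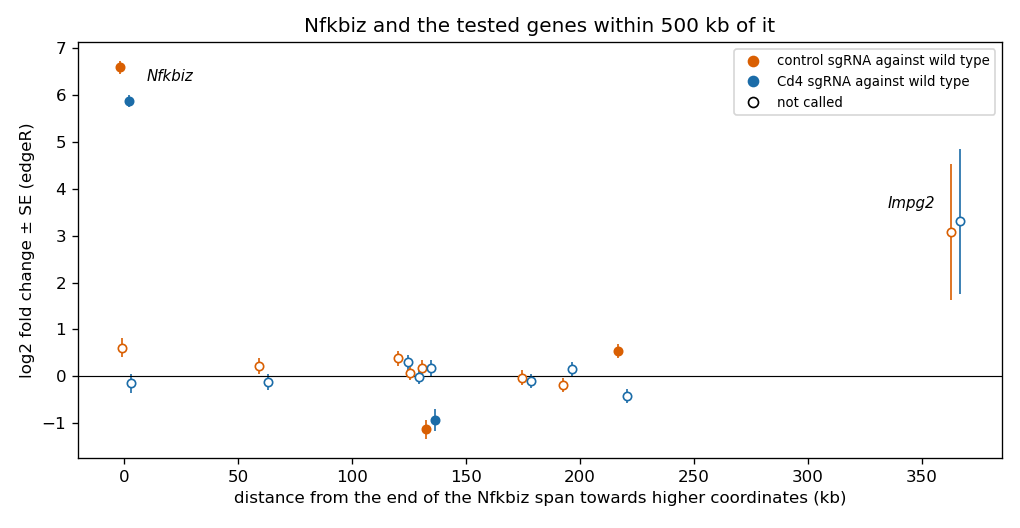
Log2 fold change ± SE from edgeR against wild type for *Nfkbiz* and the 10 tested genes within 500 kb, by distance from the end of the *Nfkbiz* span, with the 2 groups drawn slightly apart and filled points for an adjusted p-value under 0.05. Apart from *Nfkbiz* at 6.59 and 5.87 and *Impg2*, which had at most 2 counts in a wild-type library, all points lie between -1.13 and 0.61.

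The profiles nearest to that of *Nfkbiz* over the 6 libraries, by Euclidean distance of log2 CPM centred on wild type, were those of *Sox12* (0.62), *Tex101* (0.90), *Mtus2* (0.92), *Wnt10b* (0.93) and *Ppara* (1.20). All 5 had 0 to 4 counts in each wild-type library, so their distances depend on the prior count of 2 added before the logarithm. *Nfkbiz*, with 100 and 46 counts in wild type, was the only one of these 6 genes well above the floor there. *Sox12* was at 10.6 and 15.8 CPM with control sgRNA and 5.31 and 5.92 CPM with *Cd4* sgRNA.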

How the data were processed

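RNA-seq was made from polyadenylated RNA of A20 cells in 3 groups of 2 replicates, and the groups follow the sample labels. The deposited values are raw counts per Entrez gene that the authors made with featureCounts after alignment of read pairs to mm10 by Rsubread, with its inbuilt RefSeq annotation and without normalization. The strand setting and the treatment of reads shared between genes are not given in the sources used here. The files also hold a length per gene, which was used for levels per kb. A table of the whole series was not used.

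RefSeq of GRCm38.p6 gave a symbol and position for 25275 of 27179 identifiers. Removing genes with no or a duplicated symbol, mitochondrial, ribosomal RNA and other types left 25227 genes, and filterByExpr of edgeR left 12418. The removed identifiers held 5.01% to 13.9% of the counts in a library. After TMM scaling, genes were tested with edgeR 4.0.16 (glmQLFit, robust, and glmQLFTest) in R 4.3.3, with the 6 libraries in 1 fit and the group as the only term. Tests were two-sided and Benjamini-Hochberg adjustment ran over all genes tested, with calls at 0.05. The study itself used voomLmFit of limma, here an alternative with limma 3.58.1. The p-values measure the spread between 2 libraries a group. In each group replicates differed by more than counting noise (chi-square divided by its degrees of freedom 7.07 or more) and were kept as separate samples.

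The other alternatives were DESeq2 1.42.0, RLE size factors, library size only, no and a stricter low-count filter (1 CPM in 2 libraries), no annotation filter, a fit of the 2 groups alone, a block for the replicate number, and fits without 1 library, where a lone sample is assumed to vary like the other groups. The legacy estimate of the spread in edgeR was added after seeing the data. The tests were tested on simulated data. The members and lists were chosen with earlier results of these data known. Genes named are all members, per list and comparison up to 4 called with the smallest p and the one with the highest mean CPM, the tested gene nearest to *Nfkbiz* and up to 3 neighbours called, and the 5 nearest profiles; *Zbtb11*, *Impg2* and the untested list genes were added after their values were seen. The values of 1 list gene that this rule picked are not reported here.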

Additional observations from a re-analysis of the deposited data

How the results depend on the processing

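Of 30 log2 fold changes of members under 16 alternatives each, 419 values kept direction and side of the threshold, 36 gained a call, 15 lost it and 10 turned sign. In *Cd4* sgRNA against control sgRNA these were *Rel* with voomLmFit (0.00095), the replicate block (0.0073), without *Cd4* sgRNA replicate 1 (0.076) and without control sgRNA replicate 1 (0.20, in a range of -0.17 to 0.20 over the libraries left out), *Relb* without control sgRNA replicate 2 (0.20, range -0.29 to 0.20) and *Nfkbid* without control sgRNA replicate 1 (0.18, range -0.19 to 0.18). In *Cd4* sgRNA against wild type they were *Rela* (-0.035, range -0.035 to 0.053), *Nfkb1* (-0.011, range -0.011 to 0.044) and *Nfkbie* (-0.0097, range -0.0097 to 0.087), all without *Cd4* sgRNA replicate 1, and in control sgRNA against wild type *Nfkbib* without control sgRNA replicate 2 (0.13, range -0.45 to 0.13). The causes were not tested.

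Members called lower with control sgRNA against wild type, 1 in edgeR, were 0 with voomLmFit, library size only, no low-count filter, the replicate block and only the 2 groups compared, 2 with DESeq2, and 0 to 5 with a library left out. With *Cd4* sgRNA against wild type, only the 2 groups compared gave 5 higher and 2 lower, and a library left out 2 to 5 higher and 0 to 2 lower. With *Cd4* sgRNA against control sgRNA, DESeq2 gave 1 higher and 2 lower, and a library left out 0 to 4 higher and 0 to 4 lower. Pathway genes called, 32, 20 and 0 in the 3 comparisons, were 13 and 51 in the first and second with only the 2 groups compared, 13 in the third with DESeq2, and 1 to 55, 2 to 52 and 0 to 54 with a library left out. Neighbours of *Nfkbiz* called, 2, 1 and 0, were 1 with voomLmFit in the first, 1 and 0 with the replicate block and 1 and 4 with only the 2 groups compared in the first and second, 2 with DESeq2 in the third, and 0 to 7, 0 to 6 and 0 to 5 with a library left out. With a library left out, 0.911% to 64.2%, 0.636% to 59.7% and 0.00780% to 61.3% of all genes were called in the 3 comparisons.

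The labels number the replicates in each group but do not say that a number is shared, and same-numbered deviations from the group means correlated across genes at 0.014, -0.035 and -0.14 (wild type with *Cd4*, wild type with control, *Cd4* with control sgRNA). The replicate block ended the call of *Nfkb1* with control sgRNA (edgeR adjusted p = 0.075) and no other call of a member. With 2 libraries a group, the spread rests on 3 degrees of freedom per gene before sharing across genes, and genes near the floor of 3 counts, such as those known to need IκBζ, could not be tested.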
